A study of Mus musculus with 51 samples.

Results

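Open chromatin was compared by ATAC-seq between male germ cells of the Prdm9 CAST knock-in strain (KI) and of C57BL/6J (B6), region by region across the genome. All 81887 regions of the deposited joint region table were used, with the raw counts of 2 KI and 2 B6 libraries, and all of them entered the test. KI mice carry the CAST allele of Prdm9 on the B6 background, and B6 mice carry the B6 allele. Both groups were males of 12 to 14 days, and the cells were germ cells enriched from testes disaggregated with Liberase. The Prdm9 allele is the difference that the labels name between the groups, and they name no other allele or agent for either. The library names also differ by strain, as described below. The comparison asks which open chromatin goes with the Prdm9 allele carried. The whole series holds 51 samples, and the other assays used here are introduced where they are read.

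ATAC-seq uses the Tn5 transposase to cut accessible DNA, so the count of a region rises with its accessibility and with the share of cells in which it is open. PRDM9 is a meiotic zinc finger methyltransferase that binds DNA and trimethylates histone H3 on the neighbouring nucleosomes. Its alleles differ in their zinc fingers and bind different sequences, and the sites bound become the hotspots of meiotic recombination. HELLS is a chromatin remodeller that acts with PRDM9 to open these sites. DMC1 coats the single-stranded DNA at meiotic breaks, so a DMC1 peak marks a hotspot in use.

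A region was called higher or lower in KI where edgeR's quasi-likelihood test, adjusted over all regions by Benjamini-Hochberg, gave a p under 0.05. In all, 5847 regions were called higher in KI, which is 7.14% of those tested, and 1856 were called lower, which is 2.27%. Levels are CPM, a region's reads relative to all reads in regions of the library, scaled by trimmed means of M values, and all fold changes are log2 of KI over B6. The KI-higher regions had median levels of 6.98 and 6.48 CPM in the KI libraries, against 1.15 and 1.09 CPM in the B6 libraries, and their median log2 fold change was 2.62. The KI-lower regions had median levels of 1.65 and 1.78 CPM in the KI libraries, against 6.08 and 4.30 CPM in the B6 libraries, and their median log2 fold change was -1.57. The classes were defined by the same 4 libraries, so these levels describe them and test nothing. The counts of calls moved with the libraries used: lower calls numbered 8439 and 7789 when the first or the second B6 library was left out, and 1060 and 1231 when the first or the second KI library was, and the number called higher was 10370 without B6 replicate 1. KI-higher regions took 5.31% ± 0.125 of the reads in KI and 0.947% ± 0.0166 in B6 (SD, n = 2 each). KI-lower regions took 0.533% ± 0.0305 of the reads in KI and 1.42% ± 0.220 in B6 (SD, n = 2 each).

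Sequence around the word of 8 letters that differed most between the called and uncalled regions of the odd-numbered autosomes is shown for regions that hold it in their central 300 bp. Capitals mark that word, and each run of 60 bases is from the GRCm38 (mm10) genome, written 5′ to 3′ on the strand named. These 6 KI-higher regions hold the word ATGTGACC, the first of the KI-higher words.
chr17:93981324-93981383 (+ strand, intergenic): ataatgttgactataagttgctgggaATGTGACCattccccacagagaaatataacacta
chr1:194782037-194782096 (- strand, Plxna2 intron): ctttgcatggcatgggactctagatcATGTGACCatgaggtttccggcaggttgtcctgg
chr6:126638608-126638667 (- strand, intergenic): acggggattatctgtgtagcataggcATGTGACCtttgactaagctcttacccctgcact
chr12:103266214-103266273 (- strand, intergenic): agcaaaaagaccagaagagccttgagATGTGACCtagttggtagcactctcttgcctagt
chr8:123125010-123125069 (+ strand, Cpne7 promoter): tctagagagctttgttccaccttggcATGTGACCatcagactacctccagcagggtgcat
chr13:11793181-11793240 (+ strand, Ryr2 intron): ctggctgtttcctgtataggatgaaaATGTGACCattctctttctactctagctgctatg

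These 5 KI-lower regions hold the word GCTACTAC, the first of the KI-lower words, and all 5 lie on a DMC1 peak that the authors called in testis heterozygous for Hells (Hells het).
chr6:148309787-148309846 (+ strand, Tmtc1 intron): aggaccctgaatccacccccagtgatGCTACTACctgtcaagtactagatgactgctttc
chr8:32250213-32250272 (- strand, Nrg1 intron): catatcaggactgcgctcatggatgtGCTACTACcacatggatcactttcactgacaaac
chr2:120066345-120066404 (+ strand, Sptbn5 noncoding exon): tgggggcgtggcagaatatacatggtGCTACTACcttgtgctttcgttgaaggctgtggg
chr14:46503322-46503381 (+ strand, Gm48912 intron): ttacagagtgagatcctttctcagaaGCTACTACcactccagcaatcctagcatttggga
chr1:168101639-168101698 (- strand, Gm20711 intron): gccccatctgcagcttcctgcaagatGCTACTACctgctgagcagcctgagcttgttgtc

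The first KI-higher sequence lies in the intergenic region chr17:93980544-93982451, which had 67.3 and 58.4 CPM in KI against 3.09 and 2.47 CPM in B6. The Cpne7 promoter sequence came from a region with 28.8 and 27.6 CPM in KI against 3.52 and 3.10 CPM in B6. The Tmtc1 sequence came from a region with 7.66 and 6.89 CPM in KI against 46.9 and 30.9 CPM in B6. The first of these words stands at a different distance from the middle in each region, and over all regions of the table ATGTGACC stood in 1.54% and GCTACTAC in 0.498%, on either strand.

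The files of the 4 libraries held 27952728 and 30119498 reads in regions for KI, against 32066671 and 34572929 for B6. Replicates differed more in B6: the SD of the log2 difference between replicates over all regions was 0.274 in KI and 0.497 in B6. The table's columns name the strain and a number but not the sample, and the labels do not tie replicates to separate animals: a p-value here covers the spread between these libraries, which may be technical. The library names in the labels carry a different prefix for each strain, so strain and library preparation cannot be told apart. With 2 libraries a group an exact permutation test of a single value cannot go below p = 0.333. All 11 male germ cell markers had a region at the promoter, with median levels of 25.4 and 23.0 CPM per kb in KI against 29.2 and 21.7 CPM per kb in B6, and summed levels of 243 and 225 CPM per kb against 295 and 237. All 7 Sertoli cell markers also had one, with medians of 10.5 and 9.93 CPM per kb in KI against 11.2 and 9.73 CPM per kb in B6, and summed levels of 78.0 and 74.1 against 83.9 and 70.5. Of the Leydig markers 2 of 5 had a region, of the peritubular, stromal and endothelial markers 4 of 6, and of the blood and macrophage markers 0 of 4. In bulk libraries, fewer cells of a type and less accessibility per cell cannot be told apart, and the part of cell make-up in the results was not tested.

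Shares of called regions are compared between classes of regions as counts, with no test, since all regions share the same 4 libraries. By distance from transcription start sites (TSS), both directions of change were rarest at promoters with all 4 libraries. Of 22620 regions within 1 kb of a TSS, here called promoter regions, 550 were called higher in KI (2.43%) and 213 lower (0.942%). From 1 to 5 kb the shares were 7.90% higher and 2.63% lower, and from 5 to 20 kb they were 8.18% and 2.54%. From 20 to 100 kb they reached 10.03% and 2.996%, and beyond 100 kb, among 2372 regions, 337 were called higher (14.2%) and 103 lower (4.34%). With the TSS of protein-coding genes alone, 13873 regions lay beyond 100 kb, of which 1626 were called higher (11.7%) and 492 lower (3.55%), and 16277 within 1 kb, of which 201 (1.23%) and 83 (0.510%) were. With all 4 libraries the shares of both classes thus grew with distance, except for the lower share between the 1 to 5 kb and the 5 to 20 kb bins. The order for lower calls turned round when a B6 library was left out: without B6 replicate 1, 13.2% of promoter regions and 9.19% of the others were called lower, and without B6 replicate 2 the shares were 21.3% and 5.02%. For higher calls it did not, with 5.64% of promoter regions against 15.3% of the others without B6 replicate 1, and 3.90% against 13.1% without B6 replicate 2. Lower calls were made at 98 promoter regions without KI replicate 1 (0.433%, against 1.62% of the others) and at 115 without KI replicate 2 (0.508%, against 1.88%). KI-higher regions lay at a median of 12759 bp from a TSS and KI-lower regions at 11357 bp, against 6458 bp for regions called neither way. Promoter regions took 66.4% and 64.7% of the reads in KI, against 72.1% and 68.9% in B6.

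Within the promoter window the contrast was sharpest at the TSS itself. Of 17992 regions that cover a TSS, 222 were called higher (1.23%) and 104 lower (0.578%). Of 4628 regions that lie within 1 kb without covering it, 328 were called higher (7.09%) and 109 lower (2.36%), close to the shares over all regions. The lower calls over a TSS numbered 2603 without B6 replicate 1, 4573 without B6 replicate 2, 41 without KI replicate 1 and 45 without KI replicate 2, and the higher ones 664, 415, 193 and 189 in the same order. With a loess offset on GC content the order over a TSS turned round, to 212 higher and 250 lower, and over promoter regions the lower calls became 387. Lower calls over a TSS were 64 with factors from promoter regions and 19 against a minimum fold of 2. The side made little difference: within 5 kb, 7.77% of the regions upstream and 7.61% of those downstream were called higher, and 2.64% and 2.48% were called lower. A promoter window of 500 bp gave 1.91% higher and 0.788% lower, and one of 2000 bp gave 3.17% and 1.19%.

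By gene context, introns held the largest number of called regions. Of 28789 intronic regions 2883 were called higher (10.01%) and 935 lower (3.25%), and of 26665 intergenic regions 2132 were called higher (7.996%) and 613 lower (2.30%). Coding exons were called in 101 (5.61%) and 42 (2.33%) of 1800 regions. Among 1104 regions over untranslated exons 112 were called higher (10.1%) and 28 lower (2.54%). The kind of promoter also differed: of 18549 promoter regions of protein-coding genes 373 were called higher (2.01%) and 148 lower (0.798%), while of 1084 pseudogene promoter regions 65 were called higher (6.00%) and 17 lower (1.57%). Called regions inside gene bodies touched 2881 genes for the KI-higher class and 1129 for the KI-lower class, and 420 genes held both.

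**Figure D1:**
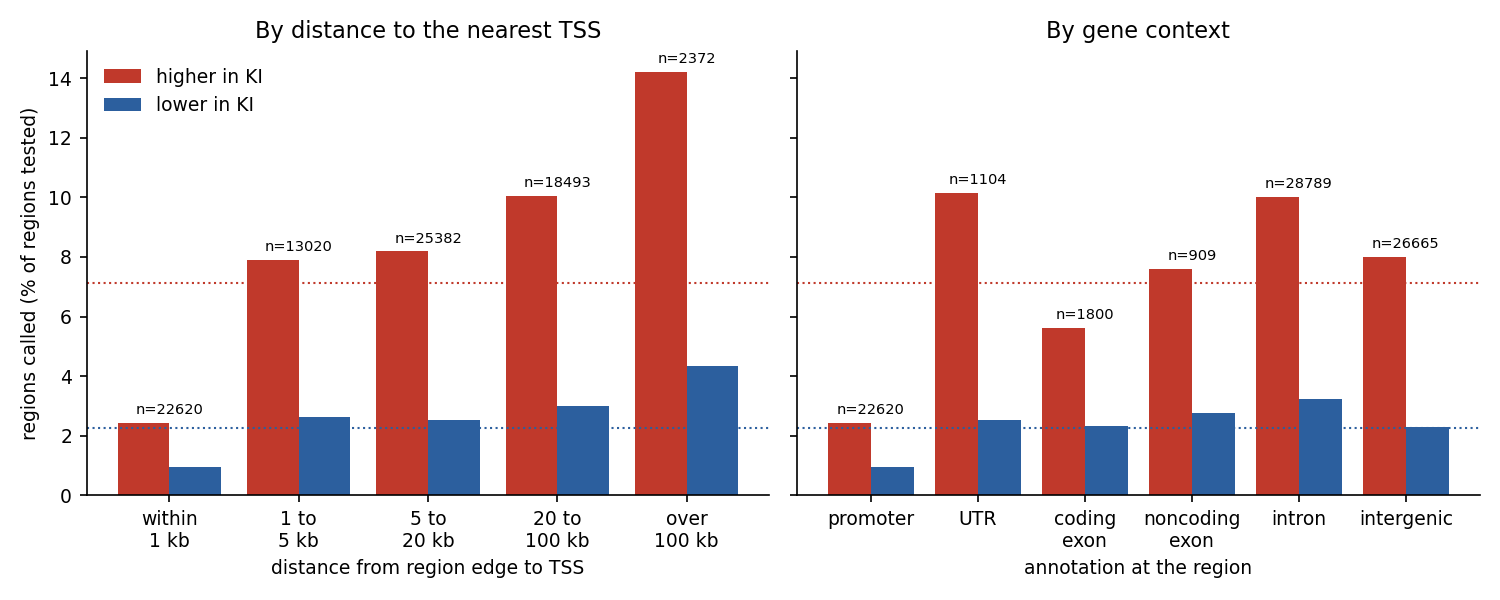
Bars give the percent of tested regions called higher in KI and lower in KI, by distance from the region's edge to the nearest TSS and by the annotation at the region, from 2 KI and 2 B6 libraries. The share called higher was 2.43% within 1 kb of a TSS and 14.2% beyond 100 kb, and the share called lower was 0.942% and 4.34%.

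With all 4 libraries, called regions of both directions were poor in CpG. KI-higher regions had a median of 8.73 CpG per kb and KI-lower regions 7.89, against 17.3 in regions called neither way. Regions were ranked by CpG and divided into 5 equal bins. In the bin with the fewest CpG, 2495 were called higher (15.2%) and 906 lower (5.53%). In the bin with the most CpG, 24 were called higher (0.147%) and 44 lower (0.269%). Promoter regions showed the same order: in the CpG-poorest of their 5 bins 440 were called higher (9.73%) and 142 lower (3.14%), while in the CpG-richest 2 were called higher and 5 lower. For lower calls this order did not hold without a B6 library: the bin with the most CpG had 12.1% called lower against 12.0% in the bin with the fewest without B6 replicate 1, and 27.7% against 7.62% without B6 replicate 2. For higher calls it held in both cases, at 2.45% against 21.3% and at 0.488% against 20.3%. Without KI replicate 1 and without KI replicate 2, 5 and 3 regions of the bin with the most CpG were called lower, against 559 and 656 of the bin with the fewest. With all 4 libraries the lower calls of the bin with the most CpG numbered between 0, against a minimum fold of 2, and 130, with a loess offset on GC content. CpG content and distance move together across regions, and their separate parts were not tested.

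The deposited segmentation divides the genome into 11 chromatin states from histone marks in B6 germ cells, and gives them numbers only. Annotated starts of protein-coding transcripts were densest in states 1 and 2, at 805 and 521 per Mb. State 7 covered 0.562% of the genome, and 92.5% of its tested regions overlapped a DMC1 peak of Hells heterozygous testis, the Hells line whose DMC1 peaks are used throughout. States 6 and 8 to 11 together covered 86.6% of the genome and held few open regions, 4.95 tested regions per Mb against 193 per Mb in states 1 to 5. The labels name no Prdm9 allele for the Hells lines.

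The directions of change differed between the states. The states were drawn from B6 marks, while the region set is joint to KI and B6. A region open in KI alone can thus enter the set in a state with few open regions. Direction by state is therefore partly built in, and these counts describe it without a test. In states 6 and 8 to 11, 4808 of 11694 regions were called higher (41.1%) and 0 lower by edgeR, with 6 lower at an unadjusted p under 0.05 and 0 by DESeq2. That count of lower regions was 1 with a loess offset on GC content, 241 without B6 replicate 1 and 35 without B6 replicate 2. In state 7 the order was opposite: 1708 of 2885 regions were called lower (59.2%) and 38 higher (1.32%). In states 1 to 5, 1001 of 67308 were called higher (1.49%) and 148 lower (0.220%), and these counts became 4563 and 6382 without B6 replicate 1, 3487 and 5388 without B6 replicate 2, and 768 and 37 without KI replicate 1, with 801 and 46 when KI replicate 2 was left out. With all 4 libraries the lower calls of states 1 to 5 were 447 with a loess offset on GC content, 98 with library size alone, 83 with factors from promoter regions and 9 against a minimum fold of 2, where the higher ones were 591. Per Mb of genome the KI-higher regions were spread far more evenly than open chromatin. They numbered 2.04 per Mb in states 6 and 8 to 11, 2.87 per Mb in states 1 to 5 and 2.48 per Mb in state 7. Single states of the first group still ran from 0.338 per Mb in state 10 to 4.22 per Mb in state 6.

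State 7 regions had median levels of 1.65 and 1.81 CPM in KI against 4.44 and 3.21 CPM in B6, and their log2 fold change, over called and uncalled regions together, had a median of -1.28. The KI libraries were both below both B6 libraries. Its number of lower calls ranged with the libraries used: 1023 without KI replicate 1, 1185 without KI replicate 2 and 2366 without B6 replicate 2, and it was 611 against a minimum fold of 2. State 9 had median levels of 3.69 and 3.59 CPM in KI against 1.35 and 1.46 CPM in B6, the log2 fold change had a median of 1.46, and 622 of its 1207 regions were called higher (51.5%). State 11, the widest at 43.7% of the genome, had medians of 3.69 and 3.59 CPM in KI against 2.00 and 1.98 CPM in B6, and 2776 of its 7034 regions were called higher (39.5%). State 6 regions were called higher in 817 of 2082 cases (39.2%) and state 8 regions in 492 of 1176 (41.8%). Within states 3, 4 and 5 the shares called higher were 1.86%, 2.65% and 6.30%, against 0.302% in state 1 and 0.744% in state 2.

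**Figure D2:**
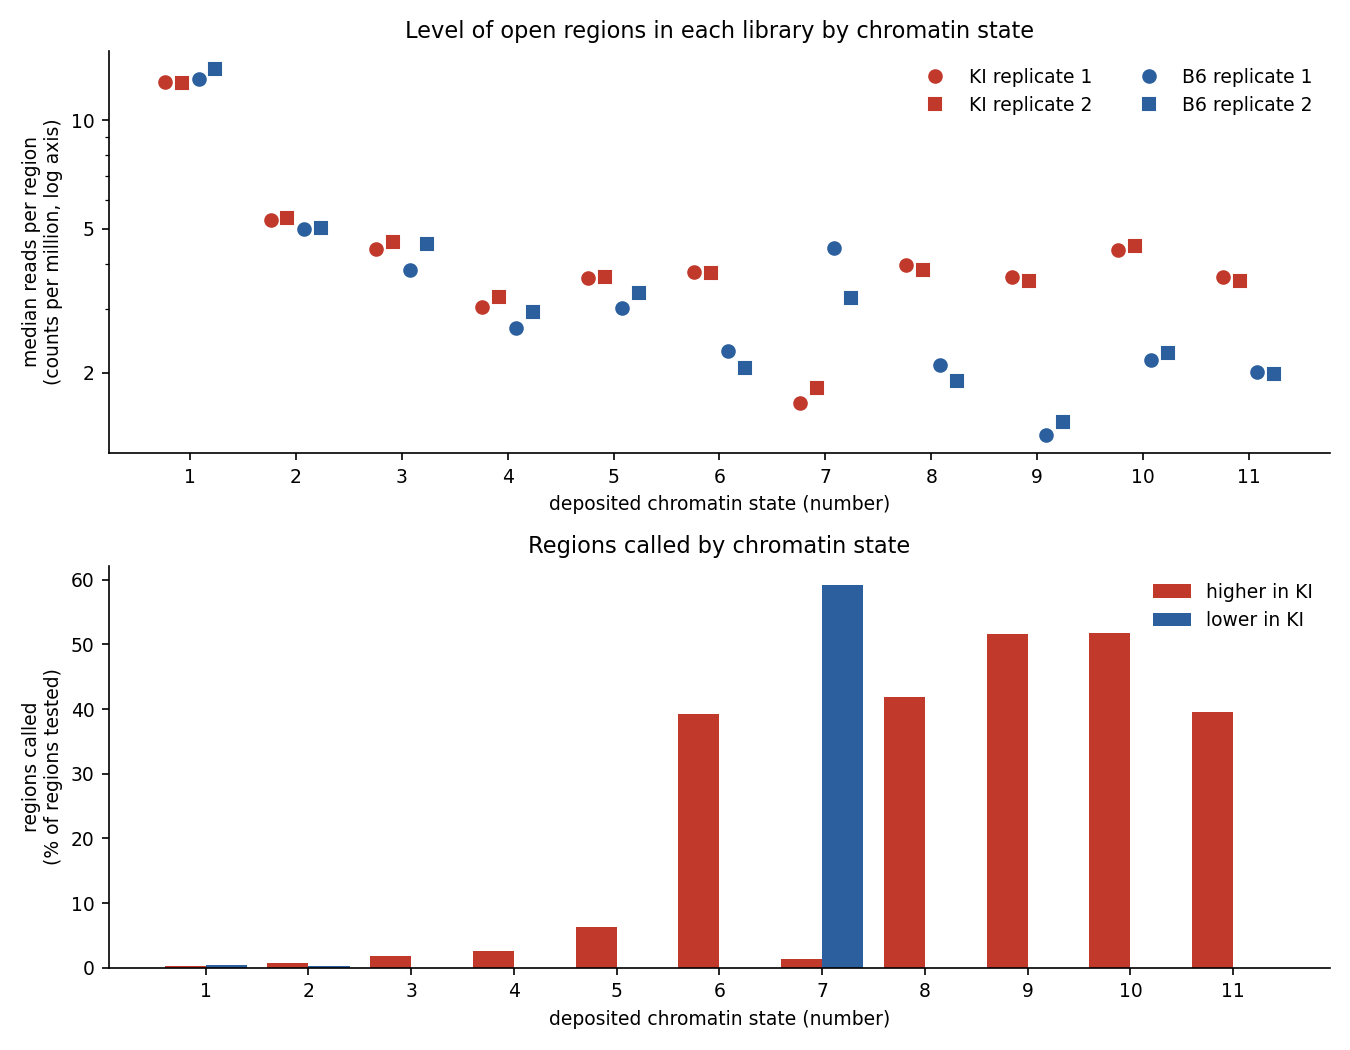
The upper plot gives the median level of the regions in each chromatin state (CPM, log axis), 1 point for each of the 2 KI and 2 B6 libraries; the lower plot gives the percent of tested regions called higher and lower in KI. State 7 is the state with most lower calls (59.2%), and states 6 and 8 to 11 have 39.2% to 51.8% called higher and 0 called lower.

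Nearly all KI-lower regions lay on a Hells het DMC1 peak: 1805 of the 1856 overlapped one with all 4 libraries, against 136 of the 5847 KI-higher regions and 3010 of the regions called neither way. Of the lower calls made without B6 replicate 1, 2222 of 8439 overlapped one, and of those made without B6 replicate 2, 2826 of 7789, while with a KI library left out 1048 of 1060 and 1218 of 1231 did. The share called lower among regions with a peak differed by state. In state 7, 1694 of 2668 regions with such a peak were called lower, while in state 1 only 81 of 1098 were. The 51 KI-lower regions without such a peak had small changes, a median of -0.61 on the log2 scale, and median levels of 17.7 and 16.5 CPM in KI against 25.5 and 26.2 CPM in B6. Of these 51, 30 were promoter regions, 28 lay in state 1 and 14 in state 7. The 136 KI-higher regions with a DMC1 peak had a log2 fold change of 2.30 at the median, and 27 lay in state 7. One was the intron of Plxna4, a semaphorin receptor, at chr6:32412711-32414270, with 27.7 and 24.9 CPM in KI against 5.82 and 4.70 CPM in B6.

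HELLS peaks were called by the authors in KI testis, and 1317 of the KI-higher regions overlapped one. Those 1317 were stronger and wider than the other 4530: their median levels were 13.3 and 12.4 CPM in KI against 1.58 and 1.46 CPM in B6, with a median width of 966 bp, while the 4530 had 5.87 and 5.46 CPM in KI against 1.05 and 1.00 CPM in B6, with a median width of 593 bp. The median log2 fold changes were 3.06 and 2.50. Outside states 1 and 2 nearly every region with a HELLS peak was called higher: 77 of 79 in state 3, 54 of 55 in state 4, 64 of 68 in state 5 and all 628 in state 11. In state 1 only 32 of 1063 were, and in state 2 only 26 of 262. The 1274 regions with a HELLS peak that were called neither way were CpG-rich, with 53.0 CpG per kb, and had median levels of 68.9 and 64.1 CPM in KI against 84.1 and 66.6 CPM in B6. HELLS was read in KI alone, so a site bound in B6 alone could not have a peak. Direction at HELLS peaks is therefore partly built in, and these counts describe it without a test. Of all 2591 regions with a HELLS peak 0 were called lower by edgeR, with 30 at an unadjusted p under 0.05 and 0 by DESeq2. That count was 33 without B6 replicate 1 and 701 without B6 replicate 2, and 0 without either KI library, while the higher calls were between 1296 and 1350.

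By position, called regions were denser toward the distal ends of the autosomes. In the last 2 Mb, 187 of 1522 regions were called higher (12.3%) and 108 lower (7.10%), while more than 50 Mb from the end 2855 of 43112 were called higher (6.62%) and 843 lower (1.96%). Per Mb this came to 4.92 higher and 2.84 lower regions in the last 2 Mb, against 1.89 and 0.557 more than 50 Mb away. KI-higher regions were densest from 2 to 5 Mb, at 5.47 per Mb. Tested regions numbered 40.1 per Mb in the last 2 Mb, 52.2 from 2 to 5 Mb and 28.5 more than 50 Mb away. Going inward, the share called higher fell from bin to bin. The share called lower did not fall steadily, with 2.96% from 2 to 5 Mb, 1.89% from 5 to 10 Mb and 2.38% from 10 to 20 Mb. The last 2 Mb had the larger shares whichever library was left out: 11.4% to 18.9% were called higher and 5.19% to 16.3% lower, against 6.16% to 11.4% and 1.06% to 10.8% more than 50 Mb from the end. That stretch held a larger share of higher calls than the whole chromosome on 17 of 19 autosomes, and a larger share of lower calls on 15 of 19. Between whole autosomes the share called higher ran between 4.90% on chromosome 10 and 8.78% on chromosome 11, and the share called lower between 1.34% on chromosome 10 and 3.31% on chromosome 14.

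Chromosome X had a smaller share of higher calls and a larger share of lower calls than the autosomes. Of 1747 regions on X, 76 were called higher (4.35%) and 60 lower (3.43%), against 7.20% and 2.24% of 80111 autosomal regions. Leaving out 1 library kept both orders, with 4.06% to 6.87% called higher on X against 6.70% to 12.8% on the autosomes, and 2.40% to 19.7% called lower against 1.27% to 10.1%. The median log2 fold change on X was -0.14, against 0.02 on the autosomes. Hells het DMC1 peaks lay on 20.6% of the X regions and on 5.73% of the autosomal ones, and among regions with such a peak 57 of 360 were called lower on X (15.8%), against 1748 of 4591 on the autosomes (38.1%). HELLS peaks lay on 0.515% of the X regions and 3.22% of the autosomal ones. In state 7, 52 of 61 X regions were called lower (85.2%), against 58.6% of the autosomal ones. In state 11, 55 of 127 X regions were called higher (43.3%), against 39.4% of the autosomal ones. Within state 11 the smaller share of higher calls on X thus did not hold.

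The X regions of lowest p in each direction were in introns and between genes. The KI-higher ones were near Gm15262, in Lhfpl1 and near Fhl1, with log2 fold changes of 4.50, 3.53 and 3.46. The region near Gm15262 had 9.09 and 8.41 CPM in KI against 0.394 and 0.373 CPM in B6. The KI-lower ones were in Egfl6, in Gm15155 and near Gm4996, with log2 fold changes of -3.14, -2.93 and -3.78. The region in the intron of Egfl6, which encodes a secreted protein with epidermal growth factor repeats, at chrX:166535948-166537128, had 1.32 and 1.17 CPM in KI against 13.9 and 8.17 CPM in B6. The SE of its log2 fold change was 0.304, with an adjusted p of 8.85e-06 by edgeR. On Y, 3 of 29 regions were called higher and 3 lower. The KI-higher region near Ddx3y, an RNA helicase gene, had 13.1 and 11.7 CPM in KI against 0.854 and 0.717 CPM in B6, while the region in the intron of Usp9y, a deubiquitinase gene, had 0.394 and 0.603 CPM in KI against 7.00 and 5.59 CPM in B6. The 3 KI-lower regions on Y, in Usp9y, in Kdm5d and near Gm28588, lay in state 7. They overlapped no DMC1 peak of the list, and neither did any other of the 29 regions on Y.

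**Figure D3:**
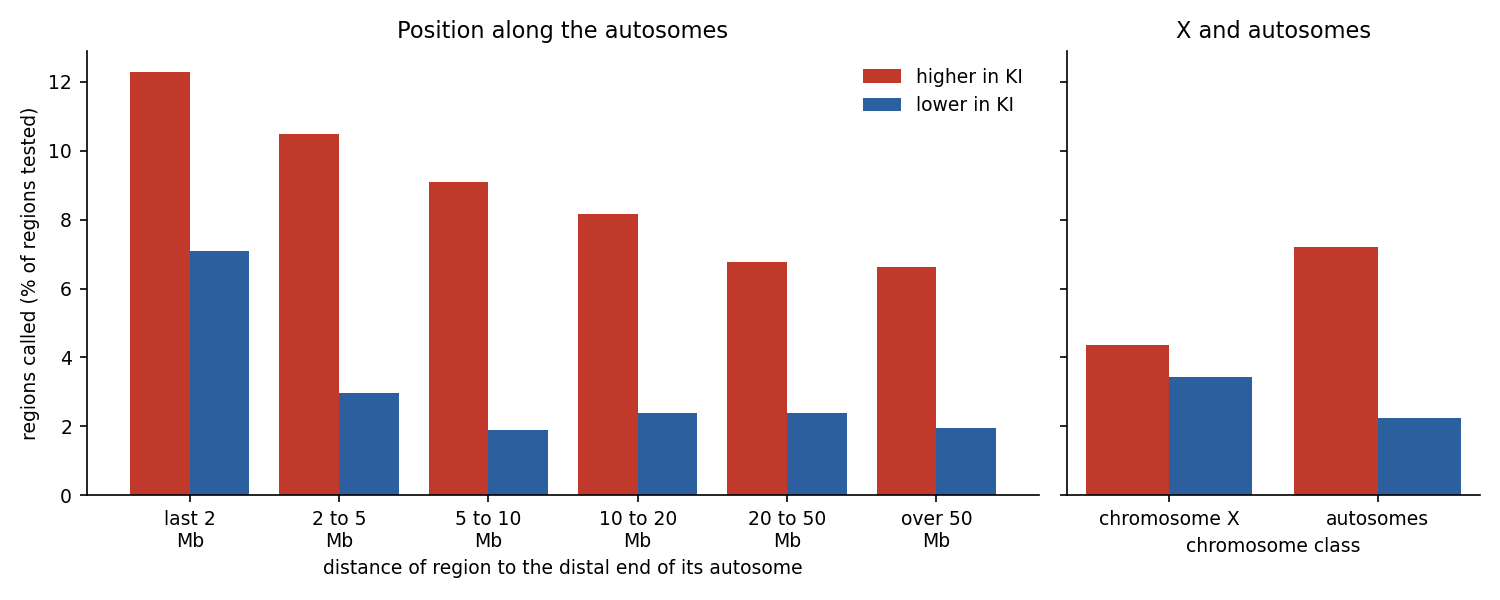
Bars give the percent of tested regions called higher and lower in KI, by distance to the distal end of the autosome (left) and for chromosome X and the autosomes (right). The last 2 Mb had 12.3% higher and 7.10% lower, against 6.62% and 1.96% more than 50 Mb from the end, and X had 4.35% and 3.43%.

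Called regions were spread over most of the genome. The median distance of a KI-higher region to the nearest other one was 106 kb, and 550 of them had one within 10 kb. Of 2537 windows of 1 Mb, 2005 held a KI-higher region, 1125 a KI-lower region and 980 both. The window with most KI-higher regions, chromosome 5 from 93 to 94 Mb, held 19 of 61 tested. The window of chromosome 6 from 146 to 147 Mb, with Itpr2, Arntl2, Ppfibp1, Stk38l and Ints13, held 13 KI-higher regions of 61 tested. The window of chromosome 19 from 60 to 61 Mb, with Cacul1, Eif3a and Prlhr, held 9 KI-lower and 8 KI-higher regions of 46 tested. It had the largest number of KI-lower ones. The window of chromosome 11 from 53 to 54 Mb, with Fstl4, Rad50, Slc22a5 and Slc22a21, held 12 KI-higher regions of 46 tested. The window of chromosome 2 from 181 to 182 Mb, with Myt1, Rgs19, Rtel1, Uckl1 and Zbtb46, held 7 KI-lower regions of 62 tested. That of chromosome 9 from 107 to 108 Mb, with Dock3, Sema3b and Sema3f, held 7 of 63. Over all regions 7.14% were called higher and 2.27% lower. The median autosome had 32.2 tested regions per Mb, so these windows were also rich in tested regions.

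Among single genes, those with the most called regions in the body are described next, in each direction. Gm20388, an annotated locus of 4435 kb, came first in both, with 19 KI-higher and 6 KI-lower regions of 288 tested. Auts2, which encodes a nuclear regulator of neural development, held 11 KI-higher regions of 32 tested, with median levels of 8.02 and 9.40 CPM in KI against 1.41 and 1.03 CPM in B6. Fgfr2, a growth factor receptor gene annotated over 2961 kb, held 8 KI-higher regions of 104, and Arhgap26 held 8 of 54. Opcml, an adhesion molecule gene, held 8 of 19, with medians of 6.96 and 7.26 CPM in KI against 0.772 and 0.889 CPM in B6. Dock3, a guanine nucleotide exchange factor gene, held 4 KI-lower regions of 7, with medians of 2.79 and 3.16 CPM in KI against 17.8 and 11.6 CPM in B6. These regions were chosen by their calls, so the medians are a description. Grm7, a glutamate receptor gene, and Snx29, a sorting nexin gene, also held 4 KI-lower regions each, of 12 and 16 tested. All of these KI-lower regions overlapped a Hells het DMC1 peak. Counts of this kind grow with the number of open regions in a gene. Over all regions 7.14% were called higher and 2.27% lower, and in introns 10.01% and 3.25%. Both counts of Gm20388, and the KI-higher count of Fgfr2, are near the shares over all regions.

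Among promoter regions, those ranked first in each direction are described next. The start of any annotated transcript counts as a TSS here, so such a region need not be the main promoter of its gene. Myt1, which encodes a neural zinc finger factor, stood in both directions, at the starts of different transcripts. Its region chr2:181766947-181768708, in state 8 and on a HELLS peak, had 54.4 and 42.2 CPM in KI against 2.43 and 2.92 CPM in B6. Its region chr2:181811074-181813091, in state 7 and on a Hells het DMC1 peak, had 6.30 and 6.00 CPM in KI against 58.4 and 47.8 CPM in B6. The log2 fold changes were 4.17 (SE 0.201) and -3.11 (SE 0.173), with adjusted p of 3.08e-07 and 3.17e-07 by edgeR. A promoter region of Tnrc6a, a component of microRNA silencing, had 34.7 and 32.5 CPM in KI against 3.22 and 2.81 CPM in B6. A promoter region of Itgb1, the integrin beta 1 gene, had 54.8 and 47.2 CPM in KI against 6.87 and 6.42 CPM in B6. Kcnj15, a potassium channel gene, and Pdlim1, a cytoskeletal adaptor gene, had log2 fold changes of 3.63 and 3.88 at a promoter region. All of these KI-higher promoter regions lay in states 6, 8 or 11, not in the promoter states 1 and 2.

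The strongest KI-lower promoter regions were all 10 in state 7 and all on a Hells het DMC1 peak. The Rtel1 region, at a helicase gene of telomere maintenance, had 4.83 and 4.64 CPM in KI against 29.1 and 22.9 CPM in B6. The region at Cars, the cysteinyl-tRNA synthetase gene, had 6.77 and 5.43 CPM in KI against 33.0 and 27.4 CPM in B6. Ipo8, a nuclear import receptor gene, Usp48, a deubiquitinase gene, and Rrp1b, an RNA processing gene, had log2 fold changes of -2.57, -2.26 and -1.997. Outside promoters, the region in the intron of Gfra1, the co-receptor of a spermatogonial growth factor, had 54.8 and 47.0 CPM in KI against 3.42 and 3.27 CPM in B6, in state 8 and on a HELLS peak.

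Of 201 promoter regions of the 15 gene lists, which cover meiotic, germ cell, somatic, imprinted, housekeeping and chromatin genes, 2 were called higher and 3 lower, beside 2.43% and 0.942% of all promoter regions. These counts are near that background and say nothing particular of the lists. The Crem region, at a transcription factor gene of spermatids, had 3.80 and 2.95 CPM in KI against 0.164 and 0.746 CPM in B6. The Dnmt1 region, at the maintenance DNA methyltransferase gene, chr9:20907904-20909120, had 11.6 and 11.0 CPM in KI against 2.23 and 2.95 CPM in B6, with a log2 fold change of 2.11 (SE 0.230) and an adjusted p of 2.26e-05 by edgeR. It lay in state 6. Uchl1, Nnat and Vwf had log2 fold changes of -0.53, -0.60 and -1.32, and none of these 3 passed the test without KI replicate 1 or without KI replicate 2. For Crem, Dnmt1 and Vwf the promoter region with the highest level was another, not called. Its log2 fold change was -0.15 for Crem, -0.26 for Dnmt1 and -0.0099 for Vwf. The Dnmt1 region of highest level had 50.8 and 49.1 CPM in KI against 64.8 and 54.5 CPM in B6. The 8 regions of genes of meiotic break formation and the 11 of the synaptonemal complex and meiotic cohesin had 0 called by edgeR, 0 at an unadjusted p under 0.05 and 0 by DESeq2, with median log2 fold changes of -0.15 and -0.14, against -0.13 for all promoter regions. Strand invasion and crossover genes had 0 of 19 regions called by edgeR and by DESeq2, with 1 lower at an unadjusted p under 0.05.

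The promoter regions of Prdm9 and Hells did not pass the test. The Prdm9 promoter region had 95.5 and 91.6 CPM in KI against 103 and 93.6 CPM in B6, with a log2 fold change of -0.07. The Hells promoter region had 58.7 and 58.3 CPM in KI against 73.6 and 73.9 CPM in B6, with a log2 fold change of -0.33 and an adjusted p of 0.386 by edgeR. Open chromatin at a promoter does not show which allele of Prdm9 is carried, so these values do not check the genotype.

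Promoter regions of gene families are given as counts, beside 2.43% higher and 0.942% lower among all promoter regions, and differences between families were not tested. Olfactory receptors, expressed chiefly in sensory neurons, had 6 of 38 regions higher, at Olfr12, Olfr1411, Olfr351, Olfr452, Olfr570 and Olfr571, and 2 lower, at Olfr24 and Olfr801. The Olfr801 region had 5.62 and 5.40 CPM in KI against 50.4 and 43.4 CPM in B6. Zinc finger protein genes had 2 higher and 2 lower of 428, vomeronasal receptors 1 higher and 1 lower of 10, and Hox genes 1 higher, at Hoxd3, and 0 lower of 47 (0 lower at an unadjusted p under 0.05 and by DESeq2). Ribosomal protein genes had 0 of 79 called, histone clusters 0 of 26 and protocadherins 0 of 26 by edgeR, with 0 at an unadjusted p under 0.05 and 0 by DESeq2. The median level of these families differed too, with olfactory receptors at 4.78 CPM in KI against 3.83 CPM in B6 and ribosomal proteins at 43.3 CPM in KI against 47.0 CPM in B6.

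Short sequence words were read in the central 300 bp of the regions. For each direction the 10 words of 8 letters that most separated called from uncalled regions on the odd-numbered autosomes, 3097 KI-higher and 944 KI-lower regions, were taken, and they were then counted on the even-numbered autosomes. Either strand counted, and several words of a list overlap one another. The KI-higher words were ATGTGACC, GATGTGAC, AAGTCACA, AGTCACAT, AAAGGTCA, CTTTGACC, AGGTCACA, AGGTCAAA, AAAGTCAC and CAAGTCAC. The KI-lower words were GCTACTAC, GGTGCTAC, GAAGCTAC, GATGCTAC, TAGTAGCA, AGTAGCAT, CTACTACC, AAGCTACT, TAGCACCA and AGAAGCTA. The lists shared 0 words.

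On the even-numbered autosomes at least 1 KI-higher word stood in 835 of 2671 KI-higher regions (31.3%), in 8.95% of KI-lower regions and in 9.69% of 34611 regions called neither way. At least 1 KI-lower word stood in 5.88% of KI-higher regions, in 180 of 849 KI-lower regions (21.2%) and in 5.98% of regions called neither way. Each list was therefore frequent in its own class and near the uncalled level in the other. Over all regions of the table the shares were 11.0% for the KI-higher words and 6.22% for the KI-lower words. On chromosome X, which was not used to choose them, KI-higher words stood in 26 of 76 KI-higher regions (34.2%) and KI-lower words in 14 of 60 KI-lower regions (23.3%). The single word ATGTGACC stood in 6.40% of the KI-higher regions and 1.12% of the uncalled ones, and the single word GCTACTAC in 2.71% of the KI-lower regions and 0.454% of the uncalled ones. On the odd-numbered autosomes, where it was chosen, GCTACTAC stood in 4.56% of the KI-lower regions. A word match is a description of the letters and not a binding site.

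The share with a KI-higher word was 35.4% of the regions with a log2 fold change above 3, 30.7% between 2 and 3, 28.4% between 1 and 2, 12.4% between 0.5 and 1 and 10.2% between 0 and 0.5, on the even-numbered autosomes. Below 0 it was 8.67% between -0.5 and 0, 13.8% between -1 and -0.5, 9.32% between -2 and -1 and 12.4% of the 161 regions below -2, so that the higher shares stood above a log2 fold change of 1. For the KI-lower words, 28.0% of the regions below -2 held one, 21.2% of those between -2 and -1 and 11.8% of those between -1 and -0.5. KI-higher words stood in 33.2% of KI-higher regions with a HELLS peak and in 30.7% of those without, and in 24.2% of KI-higher promoter regions against 6.58% of uncalled promoter regions. Regions with a HELLS peak that were called neither way held such a word in 4.48% of cases. KI-lower words stood in 19.05% of the 462 state 7 regions with a DMC1 peak that were called neither way, close to the 21.2% of the KI-lower class. Along the region, KI-higher words reached 2.73 per kb within 50 bp of the middle of KI-higher regions, against 0.549 per kb in 1 of every 5 uncalled regions.

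**Figure D4:**
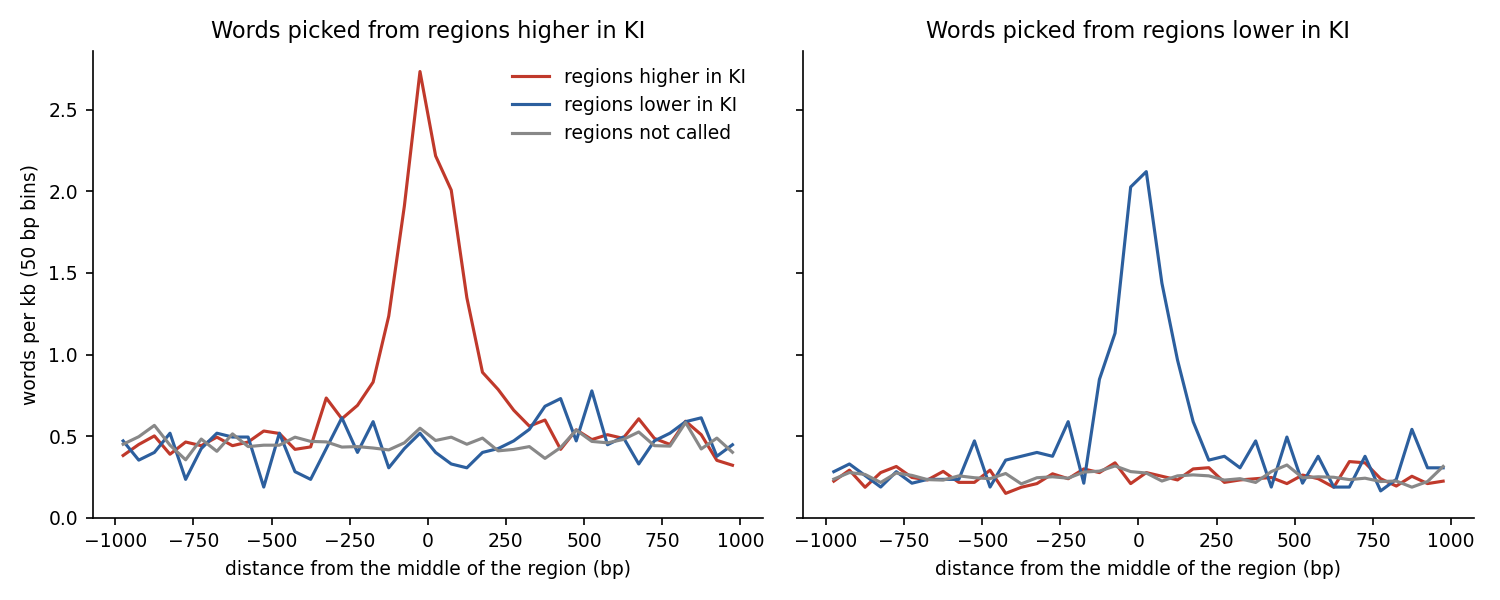
Lines give the number of listed words per kb in bins of 50 bp, by distance from the middle of the region, for KI-higher, KI-lower and uncalled regions of the even-numbered autosomes; the left plot counts the KI-higher words and the right plot the KI-lower words. KI-higher words peak at 2.73 per kb in KI-higher regions and KI-lower words at 2.12 per kb in KI-lower regions, both at the middle.

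Levels of other assays were read at the same regions where a region of that assay's table overlapped. They were not tested, and each table was scaled on its own. H3K9ac, an acetylation of active chromatin, matched 97.4% of the KI-higher regions and had median levels of 18.6 and 21.8 CPM in KI against 0.662, 2.52 and 0.787 CPM in B6. At the KI-lower regions it had 1.403 and 1.70 CPM in KI against 3.04, 15.01 and 3.13 CPM in B6. The second B6 library of this mark stood apart, and the other 2 B6 libraries were still above both KI libraries. At uncalled regions the medians were 7.48 and 7.68 CPM in KI against 10.2, 9.03 and 10.5 CPM in B6. The mark matched 98.1% of the KI-lower and 75.3% of the uncalled regions.

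The germ cells with Hells conditionally deleted (Hells CKO) and their controls (Hells wt) have an ATAC table of their own. That table matched 66.8% of the KI-lower regions, 9.73% of the KI-higher ones and 81.5% of the uncalled ones. At the matched KI-lower regions the median levels were 3.31, 2.47 and 2.86 CPM in Hells CKO against 7.32 and 6.85 CPM in Hells wt, with no overlap of the groups. At uncalled regions they were 7.77, 8.10 and 8.69 CPM in Hells CKO against 7.48 and 8.27 CPM in Hells wt, which overlapped. A region closed in Hells CKO can enter that table through Hells wt alone. The difference at matched KI-lower regions may thus be partly built in. H3K4me3, the mark that PRDM9 sets, matched all 1856 KI-lower regions and had medians of 1.18, 1.49 and 0.782 CPM in Hells CKO against 7.13 CPM in the 1 Hells wt library. At uncalled regions it had 10.01, 10.4 and 9.08 CPM in Hells CKO against 10.7 CPM in Hells wt. It matched 7.10% of the KI-higher and 63.4% of the uncalled regions, and no KI library is in its table.

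The F1 cross of B6 and CAST carries both alleles of Prdm9. Its ATAC table matched 96.7% of the KI-higher, 81.5% of the KI-lower and 57.4% of the uncalled regions. Median levels in the 2 F1 libraries were 9.69 and 9.42 CPM at KI-higher regions and 4.08 and 4.20 CPM at KI-lower regions. The median share of allele-specific reads from the B6 chromosome was 58.3% and 57.7% at KI-higher regions, 49.1% and 49.3% at KI-lower regions and 50.9% and 50.8% at uncalled regions. KI-higher regions with a HELLS peak had 68.0% and 67.0%, and those without had 56.7% and 55.8%.

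**Figure D5:**
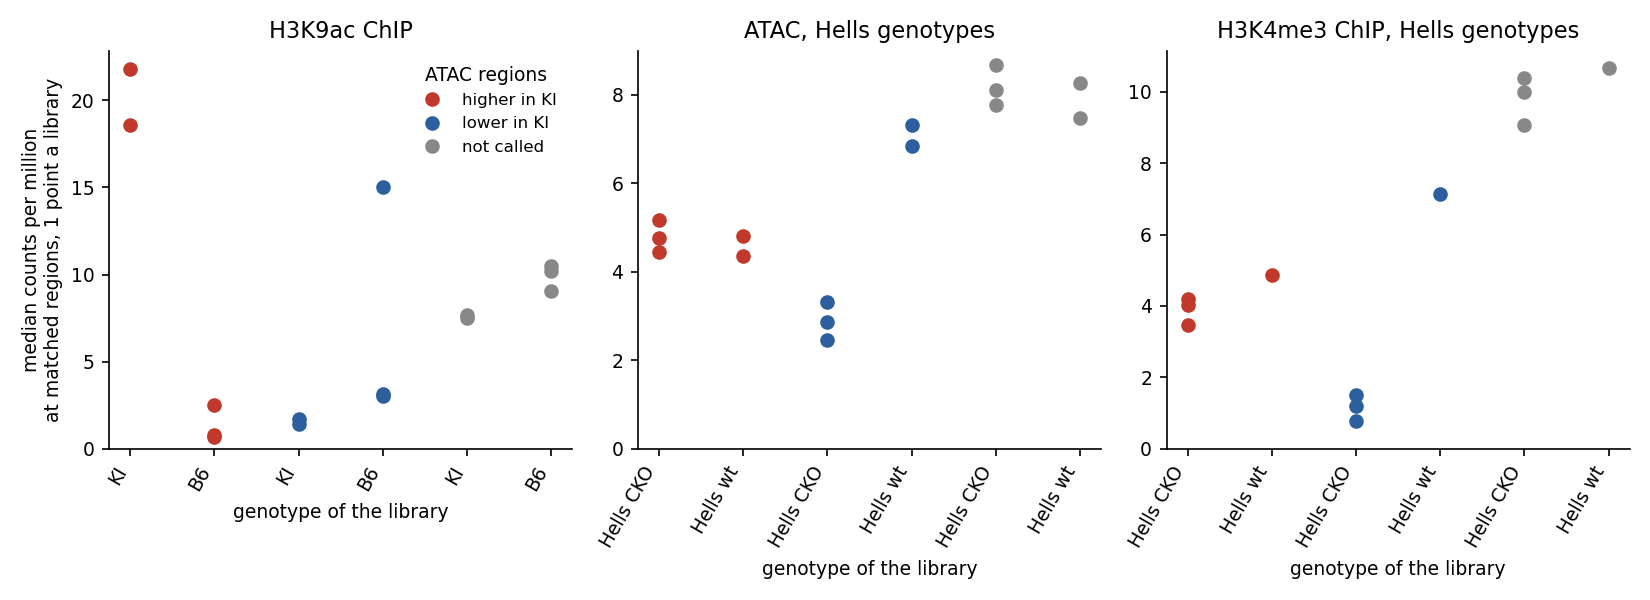
Points give the median CPM of each library at the KI-higher, KI-lower and uncalled ATAC regions that matched a region of the assay's own table, for H3K9ac, ATAC of the Hells lines and H3K4me3 of the Hells lines, with the genotype on the horizontal axis. H3K9ac at KI-higher regions is at 18.6 and 21.8 in KI and at 0.662 to 2.52 in B6, and ATAC at KI-lower regions is at 2.47 to 3.31 in Hells CKO and at 6.85 and 7.32 in Hells wt.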

How the data were processed

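The authors deposited a table of raw read counts per region for the 2 KI and 2 B6 ATAC libraries, over a joint set of regions with blacklisted ones removed, per the file headers and labels. The submitters' processing notes name mm10, CASAVA, BWA 0.7.15, Bowtie 0.12.9 and MACS 1.4.2, without roles. How reads were counted, shifted or filtered, and how reads mapping to several places were treated, is not given in the sources used here. Totals were 27952728 to 34572929 reads per library, which limits precision at regions of few reads, and the per-sample files were taken by column names that give the strain. The other deposited count tables were scaled to CPM only. The F1 table holds the authors' deposited estimated counts per allele, as given by EMASE in its name, and an allele share was read where both alleles of a library summed to 20 or more.

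The test was the quasi-likelihood F test of edgeR 4.0.16 (trimmed means of M values, strain as the only term, filterByExpr, adjustment by Benjamini-Hochberg at 0.05) in R 4.3.3; the fit rested on 2 residual degrees of freedom and a biological coefficient of variation of 0.167. Regions were placed against the GENCODE M21 annotation and the deposited segmentation of 11 states, computed from B6 histone marks per the labels, with GenomicRanges 1.54.1. Deposited starts were taken as counted from 0, and printed positions count from 1. An overlap was 1 bp or more. Words were counted from the GRCm38 sequence with pysam 0.24.0. The named regions were the 10 of each direction with the lowest p among promoter regions, the first of each direction in each state, the first 3 of each direction on X and on Y, and every called promoter region of the 15 gene lists; the text gives values for some of them. The 5 genes and 3 windows with the most called regions in each direction could also be named. The members and the lists were chosen with earlier results of these data known. The 12 other per-sample columns of the H3K4me3 and F1 tables matched no label and were not used. Tested on simulated data over 81887 regions, the same fit recovered 46 of 100 regions changed 2-fold and 97 of 100 changed 4-fold, and called 10 unchanged ones. Alternatives were DESeq2 1.42.0, other scalings, filters, a GC loess offset, a minimum fold of 2, the TSS of protein-coding genes alone and leaving out each library. Some results that the naming rules select are not reported here.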

Additional observations from a re-analysis of the deposited data

How the results depend on the processing

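The number of regions called higher in KI was 5847 with all libraries and was within 1.5 times of it under the alternatives that kept all 4 libraries: 5701 with DESeq2, 5801 with size factors of edgeR's relative log expression, 5957 with factors from promoter regions, 5864 with library size alone, 5661 with a loess offset on GC content and 5024 against a minimum fold of 2. The number called lower was 1856, and 1865, 2054, 1479, 1576 and 2504 under the same settings in that order, and 620 against a minimum fold of 2. Leaving out 1 library gave 5439 to 10370 higher and 1060 to 8439 lower. Without B6 replicate 1 there were 10370 higher and 8439 lower, and without B6 replicate 2 there were 8669 and 7789. Leaving out KI replicate 1 gave 5439 and 1060, and leaving out KI replicate 2 gave 5490 and 1231; the lone library of a strain is then assumed to vary like the other strain. The order of lower calls by promoter and by CpG content turned round when either B6 library was left out, with 13.2% and 21.3% of promoter regions called lower, against 0.942% with all libraries; that of higher calls did not (these classes were read by library after seeing the data). With a loess offset on GC content the lower calls of states 1 to 5 were 447 (148 without it), and those over a TSS 250, above the 212 higher ones. With the TSS of protein-coding genes alone, the higher and lower calls beyond 100 kb were 1626 and 492 (337 and 103 with all TSS), as fewer TSS leave more regions far from one. The cause of the other changes was not tested. No region was called in the other direction in any of these settings. Most named regions were picked for a low p with all 4 libraries, so that they kept their call is partly built in. Factors from promoter regions, the GC loess offset, the minimum fold of 2 and the filters were not among the alternatives counted for them. Of the 53 named regions 47 kept their call in all 7 alternatives run on each; the others were at Gm28389, Fbxo34, Atp1b4, Uchl1, Vwf and Nnat, of which 5 were lost without KI replicate 1 and 6 without KI replicate 2. No paired analysis was possible because the columns carry a strain and a number of their own and the labels give no replicate number shared between the strains. With 2 libraries a strain the test recovered 46 of 100 simulated 2-fold changes.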

Other observations

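One window was chosen after its values were seen. On chromosome 5, from 93413804 to 93711115, 35 regions in state 10 lay within 297 kb, over Gm16427, C87414, Gm43225 and Gm43226, and 19 of them were called higher in KI by edgeR. All 35 had log2 fold changes between 0.62 and 1.18, or 1.54-fold to 2.27-fold, with median levels of 7.05 and 8.16 CPM in KI against 4.60 and 4.30 CPM in B6. None of the 35 overlapped a HELLS peak (0) or a region of the H3K9ac table (0). The 26 other regions of the same 1 Mb window had a log2 fold change of -0.07 at the median. The 82 KI-higher regions of state 10 elsewhere had a log2 fold change of 2.46 at the median, with 5.94 and 5.84 CPM in KI against 1.04 and 0.875 CPM in B6, and 20 of them overlapped a HELLS peak and 52 a region of the H3K9ac table. Among the tested regions of the window, the share of stretches of 31 bases that a region had in common with another was 0% at the median and at most 3.63% for the 19 called regions, and at most 22.3% for the 42 uncalled ones; copies elsewhere in the genome were not counted. How reads that map to several places were counted is not given in the sources used here, and the part of copies elsewhere was not tested.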
